A study of Mus musculus with 19 samples.

Results

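The data described here are the expression levels of 10 genes of insulin and insulin-like growth factor (IGF) signaling in mouse tissues: the ligands Igf1 and Igf2, the receptors Insr and Igf1r, the receptor substrates Irs1 and Irs2, the kinase Akt2 and the IGF-binding proteins Igfbp3, Igfbp4 and Igfbp5. They were chosen by their symbols from tables of gene expression, without a cutoff on their values but with earlier results of these data known. All 10 were listed in the table of 7 tissues (of 55573 genes) and in that of brown adipose tissue (BAT, of 55487 genes), and 9 were listed in the shorter table of inguinal white adipose tissue (iWAT, of 13756 genes), which had no row for Igf2. The series held 19 RNA-seq libraries. Brain, heart, small intestine, liver, brown and white adipose and the tibialis anterior (TA) muscle of the leg were profiled from untreated wild type C57BL/6J mice on a chow diet, with 1 library per tissue. The other 12 libraries came from iWAT and BAT of 5-month-old male wild type (WT) and MCK-Musclin mice, 3 libraries for each tissue and genotype, and both genotypes had been kept at 8°C for 1 week, so no library showed the adipose tissues of these mice without cold. MCK-Musclin mice carry the coding sequence of Musclin (gene symbol Ostn), a peptide secreted by muscle, under the muscle creatine kinase promoter, which drives expression in skeletal muscle and heart, and the adipose tissues were examined for what the muscle-derived peptide does there.

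Insulin and the IGFs bind related receptor tyrosine kinases on the cell surface. The activated receptors phosphorylate the substrates Irs1 and Irs2, which recruit phosphoinositide 3-kinase, and the lipid it makes brings Akt kinases to the membrane, where they are activated. In fat and muscle this route drives glucose uptake through the transporter encoded by Slc2a4 and restrains lipolysis. Circulating IGF-1 comes mainly from the liver under the control of growth hormone, and most of it travels bound to IGF-binding proteins, which can hold the ligand away from its receptors.

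Values are FPKM, which divide a gene's fragments by its exon length and by the library size, so levels of different genes can be set side by side per length. The transgene was checked first. In BAT, Ostn was 0 FPKM in all 3 WT libraries and 37.9, 31.6 and 30.3 FPKM in the 3 MCK-Musclin libraries. In iWAT it was 0, 0 and 0.225 FPKM in WT and 0, 5.17 and 4.21 FPKM in MCK-Musclin, so MCK-Musclin library 1 showed no transgene RNA, in a tissue where the promoter is not expected to be active. The markers of fast skeletal muscle differed between libraries too. Their summed level in iWAT ran from 10.9 to 4645 FPKM in WT and from 11.1 to 188 FPKM in MCK-Musclin, with the lowest MCK-Musclin sum in library 1, and in BAT from 497 to 784 FPKM in WT and from 820 to 1767 FPKM in MCK-Musclin. The summed markers of each of the 7 labelled tissues were highest in that tissue. Alb was 22400 FPKM in liver, and Ucp1 was 467 FPKM in brown adipose and 0 in white adipose. Single markers could go the other way. Myl7, of the heart list, was 3.52 FPKM in heart and 3.545 FPKM in small intestine. Elovl3, a cold-responsive brown fat gene, was 0.0862 FPKM in that brown adipose library and 6.84 FPKM in liver. Relative sequencing depth, read from the steps between low values, ran from 0.838 to 1.05 times that of TA muscle in the 7 tissues and from 0.892 to 1.11 times that of WT library 1 in BAT. For iWAT no depth could be read.

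Across the 7 tissues the 10 genes had no common profile. As deposited, 5 were highest in white adipose, 2 in liver and 1 each in brown adipose, small intestine and brain. With 1 library per tissue these orders carry no replicate check. The values also depend on what else a library holds, because the 10 most abundant genes took from 17.0% to 52.4% of the summed FPKM. After median-ratio scaling, which sets the libraries equal at their typical gene, 4 genes kept their highest tissue (Igf1 and Igfbp4 in liver, Igf1r in brain, Igfbp3 in small intestine) and 6 had another one. Ratios between genes of 1 library do not depend on this scaling.

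**Figure D1:**
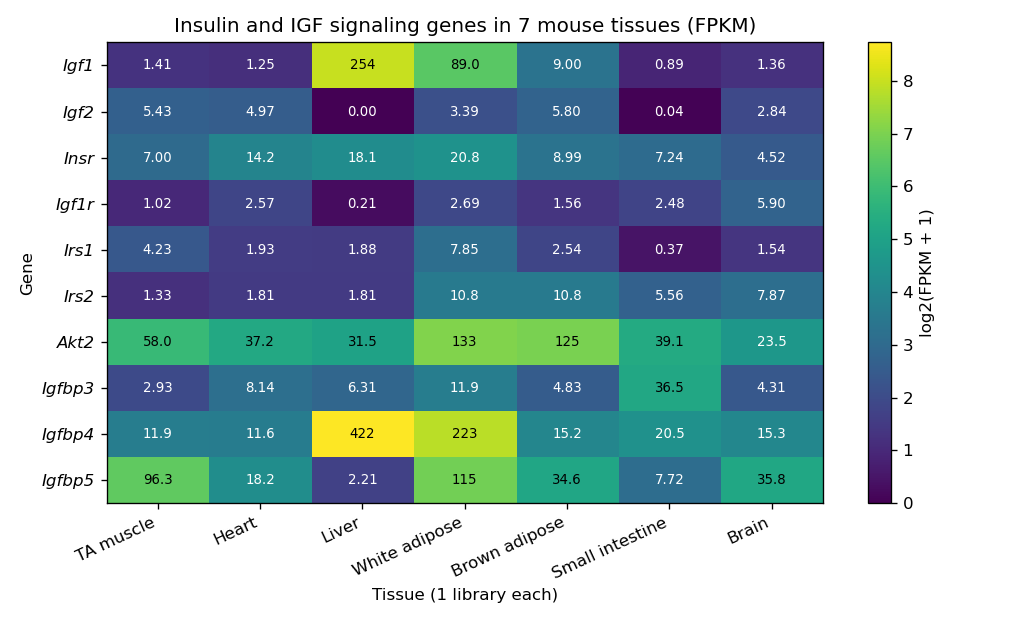
Levels of the 10 genes (rows) in the 7 tissues (columns, 1 library each), printed as FPKM and coloured by log2(FPKM + 1). Igf1 and Igfbp4 are brightest in liver and next in white adipose, Akt2 is above 20 FPKM in every tissue, and Igf1r is lowest in liver.

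Among the ligands, Igf1 (GRCm38 chr10:87858265-87937042, plus strand) encodes the growth hormone-dependent IGF. It was 254 FPKM in liver, 89.0 in white adipose, 9.00 in brown adipose, 1.41 in TA muscle, 1.36 in brain, 1.25 in heart and 0.891 in small intestine. Liver was thus 2.86 times white adipose as deposited and 5.83 times after median-ratio scaling, and both stood far above the other 5 tissues. In the white adipose library, Igf1 was 35.0% and Alb 0.161% of their liver levels. Of the other liver markers, Apoa1 was 4.96 FPKM there against 5485 FPKM in liver, and Ttr 7.215 against 2882 FPKM. Cyp2e1 was 1990 FPKM there and 3775 FPKM in liver. The part of liver RNA in the white adipose level of Igf1 was not tested. Ghr, the growth hormone receptor, was 276 FPKM in white adipose and 147 FPKM in liver, against 3.14 to 62.0 FPKM in the other 5 tissues, and liver came first of these with median-ratio scaling.

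Igf2 (chr7:142650766-142666816, minus strand), an imprinted gene known for fetal growth, stayed under 6 FPKM everywhere. It was 5.80 FPKM in brown adipose, 5.43 in TA muscle, 4.97 in heart, 3.39 in white adipose, 2.84 in brain and 0.0388 in small intestine, and it was listed at 0 in liver. The first 3 of these cannot be ordered, and TA muscle came first after median-ratio scaling, at 9.29 against 5.77 for brown adipose. Exons of Igf2 overlap those of Igf2os and Gm49394, and the alignment did not use strand, so reads of these genes cannot be told apart. H19, the imprinted RNA gene next to Igf2, was 96.0 FPKM in TA muscle and 3.35 FPKM in the next tissue, heart, a ratio of 28.7. The insulin gene Ins1 was listed at 0 in all 7 tissues, and Ins2 was 1.46 FPKM in small intestine, 0.165 FPKM in brain and 0 in the other 5.

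The receptors had opposite orders in liver and brain. Insr (chr8:3122061-3279617, minus strand), the insulin receptor, was 20.8 FPKM in white adipose, 18.1 in liver, 14.2 in heart, 8.99 in brown adipose, 7.24 in small intestine, 7.00 in TA muscle and 4.52 in brain; liver was highest after median-ratio scaling. Igf1r (chr7:67952827-68233668, plus strand), the receptor of both IGFs, was 5.90 FPKM in brain, 2.69 in white adipose, 2.57 in heart, 2.48 in small intestine, 1.56 in brown adipose, 1.02 in TA muscle and 0.209 in liver. Within a library, Insr was 86.9 times Igf1r in liver, between 2.92 and 7.74 times in the other 5 peripheral tissues, and 0.767 times in brain, where Igf1r was the higher of the pair. The tissue with the most Igf1 RNA was therefore the one with the least Igf1r RNA. Igf2r, the receptor that clears IGF-2, was between 4.56 FPKM in brain and 21.8 FPKM in heart.

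The substrates divided the tissues differently. Irs1 (chr1:82233101-82291416, minus strand) was 7.85 FPKM in white adipose, 4.23 in TA muscle, 2.54 in brown adipose, 1.93 in heart, 1.88 in liver, 1.54 in brain and 0.373 in small intestine. Irs2 (chr8:10984681-11008458, minus strand) was 10.8 FPKM in both white and brown adipose, 7.87 in brain, 5.56 in small intestine, 1.81 in both heart and liver and 1.33 in TA muscle. TA muscle held 3.19 times as much Irs1 as Irs2, heart and liver about equal amounts (1.07 and 1.03 times), and small intestine 14.9 times as much Irs2 as Irs1. After median-ratio scaling Irs1 was highest in TA muscle and Irs2 in brown adipose. Exons of Irs1 overlap those of Gm9747, and exons of Irs2 those of 9530052E02Rik. Irs3, a rodent substrate, was 19.1 FPKM in white and 12.1 FPKM in brown adipose and under 0.4 FPKM in the other 5 tissues; with median-ratio scaling brown adipose was the first, at 12.07 against 11.98.

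The bases before the transcription starts of both substrate genes are shown because Irs2 is a textbook target of FoxO factors and of E-box factors, and because both genes were highest in the same iWAT library. The sequences are from RefSeq (GRCm38.p6), 250 bases before the start, 5′ to 3′ on the strand of the gene, at chr1:82291440-82291689 (minus strand) for Irs1 and chr8:11008930-11009179 (minus strand) for Irs2. Capitals mark an E-box (CACGTG) and an insulin response motif (TTGTTTTG or TTATTTTG), searched on both strands. The motifs were picked after these promoters had been looked at.
Irs1: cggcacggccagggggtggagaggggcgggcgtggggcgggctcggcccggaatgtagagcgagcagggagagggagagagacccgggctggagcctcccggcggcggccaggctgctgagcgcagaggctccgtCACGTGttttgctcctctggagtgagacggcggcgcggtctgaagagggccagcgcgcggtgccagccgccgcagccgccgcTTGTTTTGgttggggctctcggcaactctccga
Irs2: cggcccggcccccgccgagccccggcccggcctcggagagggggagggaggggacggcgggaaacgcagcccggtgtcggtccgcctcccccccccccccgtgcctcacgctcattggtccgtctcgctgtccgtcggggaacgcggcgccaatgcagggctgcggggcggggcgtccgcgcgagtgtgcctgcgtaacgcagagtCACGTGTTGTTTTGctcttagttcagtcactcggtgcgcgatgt
In Irs1 the E-box began 115 bases and the insulin response motif 33 bases before the start. In Irs2 they began 44 and 38 bases before it and stood directly next to each other without overlap. Of 15 promoters of 9 of the genes in the table (Insr had none), these 2 were the ones with either motif. Among all 32851 promoters of the table, 3.63% held the insulin response motif, 6.02% the E-box and 0.146% both. A match says that the letters are there and nothing about binding.

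Akt2 (chr7:27591552-27640826, plus strand) encodes the Akt kinase known for insulin-stimulated glucose uptake. It was 133 FPKM in white adipose, 125 in brown adipose, 58.0 in TA muscle, 39.1 in small intestine, 37.2 in heart, 31.5 in liver and 23.5 in brain, the only one of the 10 genes above 20 FPKM in every tissue as deposited. The first 2 were 1.06-fold apart, and brown adipose was highest after median-ratio scaling. As a share of the summed FPKM of Akt1 and Akt2, Akt2 was 83.7% in brown adipose, 80.3% in TA muscle, 76.0% in white adipose, 68.3% in liver, 50.2% in heart, 46.3% in small intestine and 39.2% in brain. Akt1, the kinase known for growth and survival, was thus the higher of the pair in small intestine and brain and about equal to Akt2 in heart.

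**Figure D2:**
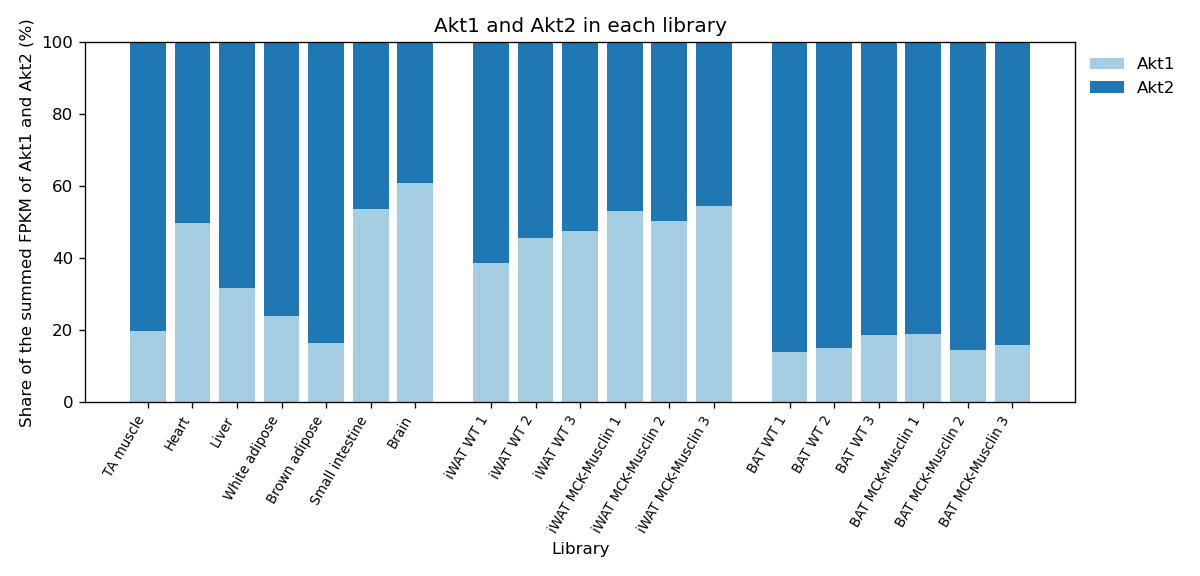
Shares of Akt1 and Akt2 in their summed FPKM (vertical axis, %) in each of the 19 libraries (bars). Akt2 is above 80% in every brown fat library and lowest in brain, and the 3 iWAT MCK-Musclin libraries have 45.4% to 49.7% Akt2 against 52.5% to 61.2% in the 3 WT libraries.

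The 3 binding proteins were highest in different tissues. Igfbp3 (chr11:7206086-7213923, minus strand), the main carrier of IGFs in blood, was 36.5 FPKM in small intestine, 11.9 in white adipose, 8.14 in heart, 6.31 in liver, 4.83 in brown adipose, 4.31 in brain and 2.93 in TA muscle. Igfbp4 (chr11:99041244-99054392, plus strand), which inhibits IGF action, was 422 FPKM in liver and 223 in white adipose, and from 11.6 in heart to 20.5 in small intestine in the other 5. Igfbp5 (chr1:72857932-72874884, minus strand), which binds extracellular matrix, was 115 FPKM in white adipose, 96.3 in TA muscle, 35.8 in brain, 34.6 in brown adipose, 18.2 in heart, 7.72 in small intestine and 2.21 in liver; TA muscle was highest after median-ratio scaling.
Within the summed FPKM of these 3 genes, Igfbp4 was 98.0% in liver and Igfbp5 86.6% in TA muscle. Of the other binding proteins, Igfbp2 was 135 FPKM in liver, 7.28 times its level in brain, and Igfbp6 was 238 FPKM in white adipose, 8.81 times its level in TA muscle; with median-ratio scaling these ratios were 12.04 and 3.22.

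Likeness of profile was taken as Pearson's r of log2(FPKM + 1) over the 7 tissues, among 10413 genes of at least 10 FPKM in 1 tissue, and is a description, since the highest of so many values are high in any case. Igf1 was most like Hsd11b1 (r = 0.997) and Gm18840 (r = 0.993), and Igf2 most like Vldlr (0.984) and Nol3 (0.981). Insr was most like Cd300ld (0.958) and Rhobtb1 (0.951), and Igf1r most like Ralgapa1 (0.990) and Exoc6b (0.981). Irs1 was most like Mr1 (0.965) and Pnpla8 (0.95), Irs2 most like Acad9 (0.984) and Stx18 (0.981), and Akt2 most like Mir8114 (0.974) and Pcolce (0.972). Igfbp3 was most like Plcg2 (0.991) and Pfn1 (0.988), Igfbp4 most like Fn1 (0.991) and Vnn3 (0.987), and Igfbp5 was like Nfe2l1 (0.978). Among the 10 genes themselves, Igf1 and Igfbp4 were the most alike pair (r = 0.953), followed by Igf2 and Igfbp5 (r = 0.805).

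In iWAT after cold, none of the 9 genes passed the adjusted threshold between the genotypes, while the lower mean levels of Akt2 and Insr in MCK-Musclin mice reached an unadjusted p under 0.05 and the higher mean of Igf1 did not with all libraries and no centring. By limma on log2(FPKM + 1) with Benjamini-Hochberg adjustment over all 12197 genes that averaged 1 FPKM or more, no gene (0.0%) had an adjusted p under 0.05. At an unadjusted p under 0.05, 420 genes (3.44%) were lower and 1592 (13.1%) higher in MCK-Musclin. This split depends on scaling: it was 826 lower and 1035 higher with median-ratio scaling, and 684 lower and 1260 higher as TPM. Of the 9 genes, 2 were lower and 0 higher at that p. The groups did not overlap in 5.44% of all genes with MCK-Musclin lower and in 17.9% with it higher, and in 2 and 0 of the 9. The median log2 fold change was 0.0021 over the 9 genes and 0.06 over all genes tested.

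The makeup of the iWAT libraries differed in ways that touch these values. All 10 general adipocyte markers had lower means in MCK-Musclin (median log2 fold change -0.15, summed level 14050 to 15380 FPKM in WT and 12420 to 14100 FPKM in MCK-Musclin). Of the 10, 1 had an unadjusted p under 0.05, and the sums overlapped. The 8 B cell markers all had higher means and an unadjusted p under 0.05 (median 0.92, 153 to 299 FPKM and 338 to 444 FPKM), as did the 6 lymph node stroma markers (median 0.70, 157 to 338 FPKM and 360 to 579 FPKM). Of the 9 T cell markers, 8 had such a p (median 0.66, 112 to 163 FPKM and 218 to 227 FPKM). All 10 brown and beige fat markers had lower means, 7 with such a p (median -1.06, 584 to 1083 FPKM and 124 to 655 FPKM). The sum of 655 FPKM was that of MCK-Musclin library 1, the one without transgene RNA, and lay within the WT range. MCK-Musclin libraries 2 and 3 had 232 and 124 FPKM. The fast skeletal muscle markers had a median of -2.19, with no such p. The medians of macrophages and of adipocyte progenitors and fibroblasts were 0.15 and 0.20, with 2 and 1 of 10 markers higher at such a p. Those of smooth muscle and pericytes (0.04) and endothelium (0.0021) lay nearer 0. The part of these differences in the results below was not tested, and in bulk tissue fewer cells of a type and less RNA per cell cannot be told apart.

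**Figure D3:**
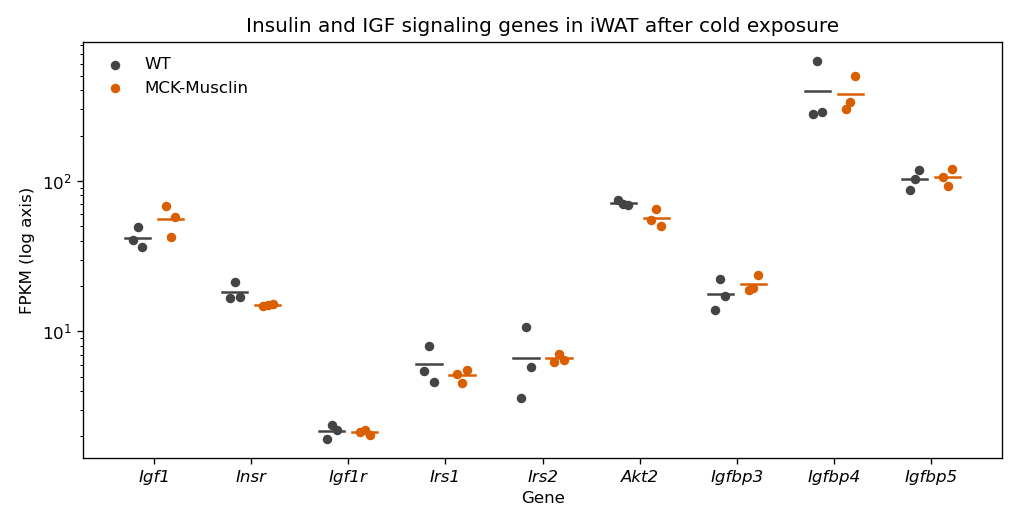
FPKM of the 9 genes in each iWAT library (points, log axis) of cold-exposed WT and MCK-Musclin mice, with the group means (lines, n = 3 each). The groups are separate for Akt2 and Insr and overlap for the other 7, and 1 WT library lies high for Irs2 and Igfbp4.

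Akt2 was 75.2, 70.2 and 69.1 FPKM in the WT libraries and 54.5, 64.9 and 49.8 FPKM in the MCK-Musclin libraries (71.5 ± 3.22 and 56.4 ± 7.73, SD, n = 3 each). All 3 MCK-Musclin libraries lay below all 3 WT libraries. The log2 fold change was -0.34 (SE 0.12, 95% confidence interval -0.62 to -0.07, p = 0.020, adjusted p = 0.22 by limma), and the exact permutation test gave p = 0.1, the smallest that 3 against 3 allow. When the libraries were centred on the general adipocyte markers, a choice made after the data were seen, it was -0.14 (adjusted p = 0.49, limma) while the median of all genes moved to 0.27. Without MCK-Musclin library 1, the one without transgene RNA, it was -0.33 (adjusted p = 0.33, limma). The unadjusted p was over 0.05 without that library, without MCK-Musclin library 3, without WT library 1 and with the centring, and all alternatives gave values below 0.

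Akt1 was 47.6, 58.8 and 62.5 FPKM in WT and 62.0, 65.7 and 59.8 FPKM in MCK-Musclin, so the groups overlapped. The share of Akt2 in the sum of both, which scaling cannot move, was 61.2%, 54.4% and 52.5% in WT and 46.8%, 49.7% and 45.4% in MCK-Musclin. The means were 56.0% ± 4.59 and 47.3% ± 2.18 (SD, n = 3 each), a difference of -8.75 percentage points without overlap (exact permutation test, two-sided, p = 0.1, and 0.4 after adjustment over the 8 ratios compared in both tissues).

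Insr was 16.7, 21.1 and 17.0 FPKM in WT and 14.7, 15.0 and 15.1 FPKM in MCK-Musclin (18.3 ± 2.46 and 14.9 ± 0.217). The MCK-Musclin libraries lay close together and below WT. The log2 fold change was -0.27 (SE 0.11, 95% confidence interval -0.53 to -0.0035, p = 0.048, adjusted p = 0.30 by limma), and the exact p was 0.1. Without WT library 2 the log2 fold change was -0.16 (adjusted p = 0.53 by limma, and from 0.25 to 0.78 over all alternatives). The unadjusted p was over 0.05 without that library and without any 1 of the MCK-Musclin libraries. It was also over 0.05 by limma without the trend, with a replicate block and with centring on the adipocyte markers. With that centring the log2 fold change was -0.06. Igf1r, in contrast, was 1.92, 2.38 and 2.19 FPKM in WT and 2.15, 2.19 and 2.03 FPKM in MCK-Musclin, with a log2 fold change of -0.02 (95% confidence interval -0.29 to 0.25). The ratio of Insr to Igf1r was 8.44 ± 0.601 in WT and 7.05 ± 0.351 in MCK-Musclin (SD, n = 3 each) and did not overlap (exact p = 0.1, adjusted 0.4).

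Igf1 was 40.3, 49.6 and 36.1 FPKM in WT and 68.4, 42.6 and 57.7 FPKM in MCK-Musclin (42.0 ± 6.88 and 56.2 ± 12.9). MCK-Musclin library 2 lay among the WT libraries and the other 2 above them. The log2 fold change was 0.40 (SE 0.19, 95% confidence interval -0.05 to 0.85, p = 0.074 and adjusted p = 0.35 by limma, exact permutation p = 0.2). It stayed above 0 under every alternative, from 0.25 without MCK-Musclin library 1 to 0.60 with centring on adipocyte markers, with adjusted p from 0.13 to 0.58, and its unadjusted p was under 0.05 without MCK-Musclin library 2 (adjusted p = 0.26), without WT library 2 (adjusted p = 0.39) and with that centring. The summed macrophage markers were 688, 656 and 666 FPKM in the WT libraries and 938, 664 and 958 FPKM in the MCK-Musclin libraries. Those of adipocyte progenitors and fibroblasts were 715, 707 and 865 FPKM in WT and 907, 726 and 891 FPKM in MCK-Musclin. MCK-Musclin library 2 was the lowest of its genotype in both sums, as it was for Igf1. WT library 2 was also the lowest of its genotype in both sums, but the highest for Igf1. The part of these cell types in the Igf1 values was not tested.

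The substrates showed a single high library. Irs2 was 3.59, 10.7 and 5.76 FPKM in WT and 6.25, 7.09 and 6.49 FPKM in MCK-Musclin, so WT library 2 was highest and WT library 1 lowest of all 6. Its log2 fold change was 0.09 (95% confidence interval -0.63 to 0.81). Irs1 was 5.48, 8.03 and 4.63 FPKM in WT and 5.22, 4.51 and 5.53 FPKM in MCK-Musclin, with a log2 fold change of -0.19 (95% confidence interval -0.62 to 0.25). WT library 2 was also the highest of the 6 for Insr, Igf1r and Igfbp4.

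The binding proteins overlapped between the genotypes. Igfbp4 was 281, 624 and 288 FPKM in WT and 302, 337 and 497 FPKM in MCK-Musclin, with a log2 fold change of 0.0021 whose 95% confidence interval ran from -0.78 to 0.79. Igfbp5 was 86.4, 104 and 118 FPKM in WT and 107, 92.7 and 120 FPKM in MCK-Musclin (log2 fold change 0.05, 95% confidence interval -0.29 to 0.40). The signs of both turned with scaling, to -0.078 and -0.027 with median ratios. Igfbp3 was 13.8, 22.4 and 17.2 FPKM in WT and 18.9, 19.4 and 23.7 FPKM in MCK-Musclin (log2 fold change 0.22, 95% confidence interval -0.20 to 0.64). That value was 0.063 without WT library 1, 0.13 without MCK-Musclin library 3, 0.40 without WT library 2, 0.43 with centring on the adipocyte markers and 0.15 with median-ratio scaling. The unadjusted p was under 0.05 without WT library 2 (adjusted p = 0.39) and with the centring (adjusted p = 0.16).

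Of 67 other genes of the pathway, 62 were listed in iWAT and 57 tested. None had an adjusted p under 0.05 by limma, 9 were lower and 6 higher at an unadjusted p under 0.05, and their median log2 fold change was -0.0051. Together these were 26.3% of the 57, against 16.5% of all genes tested (3.44% lower and 13.1% higher). The groups did not overlap in 10 with MCK-Musclin lower and 7 with it higher, against 5.44% and 17.9% of all genes tested. Cish, a growth hormone target that inhibits its receptor, had the smallest p of them: it was 3.71, 4.30 and 3.26 FPKM in WT and 1.96, 1.31 and 1.22 FPKM in MCK-Musclin (log2 fold change -0.94, SE 0.16, adjusted p = 0.14). All MCK-Musclin libraries were below all WT libraries. Exons of Cish overlap those of Gm17040 and Gm17041. Socs2, another growth hormone target, was in the other direction, at 10.2, 10.6 and 10.1 FPKM in WT and 12.7, 11.6 and 13.2 FPKM in MCK-Musclin (adjusted p = 0.25). Of the 6 growth hormone axis genes tested, 1 was lower and 1 higher at that p. Igfals, which holds IGFs and Igfbp3 in the large complex of the blood, was 4.09, 5.14 and 4.08 FPKM in WT and 3.78, 1.36 and 1.16 FPKM in MCK-Musclin (log2 fold change -0.90, adjusted p = 0.21), with the highest MCK-Musclin value in library 1.

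The other pathway genes with an unadjusted p under 0.05 and separate groups fell on both sides. Of the 6 adaptors, 2 were lower and 1 higher. Sh2b2, an adaptor of the insulin receptor, was 25.2, 20.7 and 28.3 FPKM in WT and 14.5, 15.5 and 19.02 FPKM in MCK-Musclin (log2 fold change -0.57, adjusted p = 0.16). Grb2, which links receptors to Ras, was 21.7, 18.6 and 23.2 FPKM in WT and 24.1, 39.5 and 40.5 FPKM in MCK-Musclin (0.66, adjusted p = 0.20). Among the subunits of phosphoinositide 3-kinase, Pik3cb had a log2 fold change of -0.40 and Pik3cd, the catalytic subunit of leukocytes, one of 0.55 (adjusted p = 0.22 each by limma).
Inpp5d, a lipid phosphatase of blood cells, was 9.07, 7.63 and 8.36 FPKM in WT and 12.0, 13.3 and 12.3 FPKM in MCK-Musclin (0.53, adjusted p = 0.14). Tbc1d1, an Akt substrate in glucose transporter traffic, had a log2 fold change of 0.37 (adjusted p = 0.18). Pik3cd and Inpp5d are known for high expression in leukocytes, and the summed B and T cell markers above were also higher in the MCK-Musclin libraries. The part of leukocytes in the levels of both genes was not tested. Slc2a4, the insulin-responsive glucose transporter, was 50.8, 48.9 and 39.6 FPKM in WT and 35.2, 41.5 and 34.9 FPKM in MCK-Musclin, with overlap (log2 fold change -0.31, adjusted p = 0.29).

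In BAT after cold, no gene of the 10 came near the threshold, and the levels of all 10 overlapped between the genotypes. Of the 10 genes, 8 passed the filter, and Igf2 and Igf1r were below it. By limma over 10893 genes, 1 gene (0.00918%) had an adjusted p under 0.05. At an unadjusted p under 0.05, 295 genes (2.71%) were lower and 238 (2.18%) higher, a split that was 236 and 288 as TPM. None of the 8 genes had either, and the smallest adjusted p of the 8 was 0.97. The groups did not overlap in 5.63% of all genes with MCK-Musclin lower and 4.38% with it higher, and in 0 of the 10. The median log2 fold change was -0.0016 over the 8 genes and -0.0084 over all genes tested. The 10 general adipocyte markers had lower means in MCK-Musclin (median -0.08), 2 of them at an unadjusted p under 0.05. The 10 fast skeletal muscle markers had higher means (median 0.87), 9 of them at such a p. The part of both lists in these values was not tested. The B and T cell markers summed to at most 1.09 and 1.77 FPKM in any BAT library, and the lists for macrophages (0.16), progenitors and fibroblasts (0.16), lymph node stroma (0.45, 1 gene tested), endothelium (-0.12) and smooth muscle and pericytes (-0.18) are given by their medians.

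**Figure D4:**
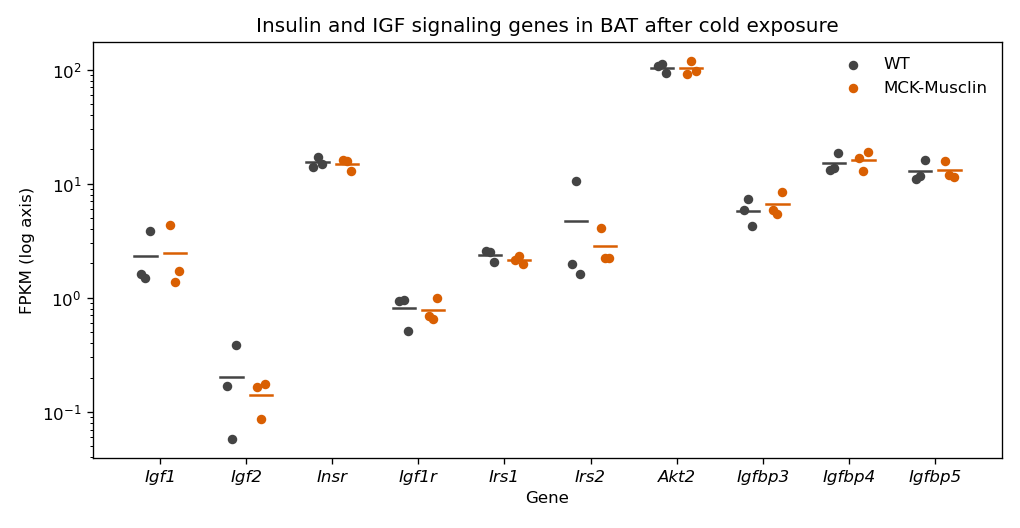
FPKM of the 10 genes in each BAT library (points, log axis) of cold-exposed WT and MCK-Musclin mice, with the group means (lines, n = 3 each). The groups overlap for every gene, and 1 WT library lies apart for Irs2.

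Akt2 in BAT was 109, 111 and 92.8 FPKM in WT and 91.5, 118 and 97.7 FPKM in MCK-Musclin (log2 fold change -0.03, 95% confidence interval -0.31 to 0.26). Its share of the sum of Akt1 and Akt2 was 84.2% ± 2.58 in WT and 83.6% ± 2.38 in MCK-Musclin (SD, n = 3 each). Insr was 13.9, 17.2 and 15.0 FPKM in WT and 16.2, 15.8 and 12.8 FPKM in MCK-Musclin (log2 fold change -0.04, 95% confidence interval -0.34 to 0.26). Whether the differences of Akt2 and Insr in iWAT exceeded those in BAT was not tested.

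Irs2 had the widest spread of the 8. It was 1.98, 10.6 and 1.61 FPKM in WT and 4.11, 2.23 and 2.23 FPKM in MCK-Musclin, and WT library 2 stood apart from the other 5. Its log2 fold change was -0.25 (95% confidence interval -1.51 to 1.00), and 0.43 without that library. The library numbered 2 was the highest WT library for Irs2 in iWAT as well; the labels do not say whether equal numbers mark the same mouse. Irs1 was 2.56, 2.51 and 2.05 FPKM in WT and 2.13, 2.32 and 1.98 FPKM in MCK-Musclin (log2 fold change -0.10, 95% confidence interval -0.39 to 0.19).

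Igf1 was low in BAT, at 1.63, 1.49 and 3.83 FPKM in WT and 4.34, 1.39 and 1.73 FPKM in MCK-Musclin, with 1 high library in each group (log2 fold change 0.05, 95% confidence interval -0.80 to 0.89). Igf2 was between 0.0577 and 0.387 FPKM and Igf1r between 0.510 and 0.989 FPKM over the 6 libraries, with overlapping groups. Igfbp3 was 5.87, 7.31 and 4.22 FPKM in WT and 5.90, 5.38 and 8.47 FPKM in MCK-Musclin (log2 fold change 0.16, 95% confidence interval -0.34 to 0.66). Igfbp4 and Igfbp5 ran from 12.8 to 18.97 FPKM and from 11.0 to 16.1 FPKM, with log2 fold changes of 0.09 and 0.02.

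**Figure D5:**
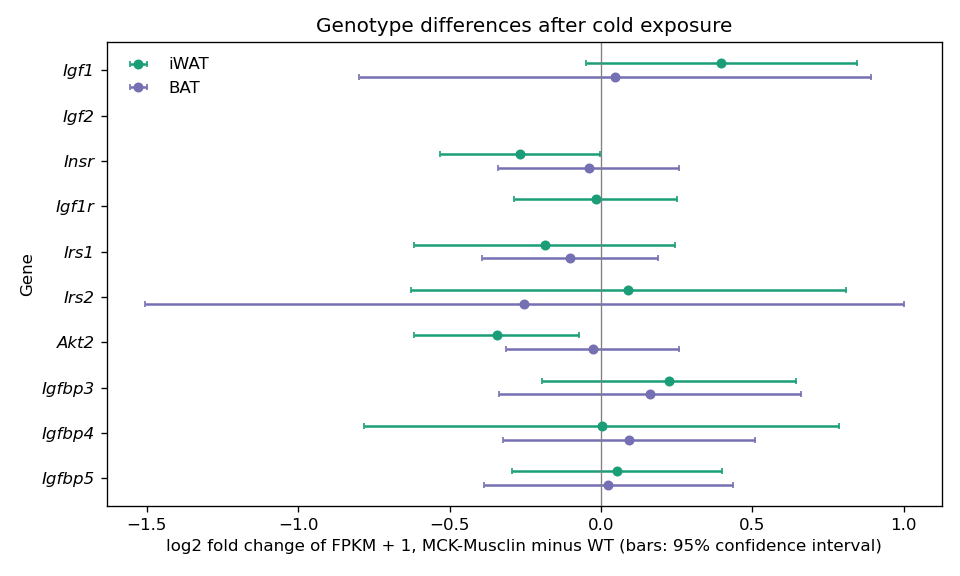
Log2 fold changes of FPKM + 1, MCK-Musclin minus WT (horizontal axis), with their 95% confidence intervals (bars, limma, n = 3 against 3) for the genes tested in iWAT and in BAT. Only the iWAT intervals of Akt2 and Insr leave out 0, that of Insr barely, and the BAT interval of Irs2 is the widest.

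Of the other pathway genes, 51 were tested in BAT. None had an adjusted p under 0.05 by limma, 0 were lower and 2 higher at an unadjusted p under 0.05, and the median log2 fold change was -0.0020. These were 3.92% of the 51, against 4.89% of all genes tested. Igfbp6 was 8.29, 8.27 and 12.0 FPKM in WT and 13.4, 12.6 and 13.9 FPKM in MCK-Musclin (log2 fold change 0.46, adjusted p = 0.97), the one of these 51 genes whose groups did not overlap. Pik3r1, the main regulatory subunit of phosphoinositide 3-kinase, was the other, with overlap (0.32, adjusted p = 0.97). Cish was 8.35, 6.02 and 1.02 FPKM in WT and 1.46, 1.69 and 2.33 FPKM in MCK-Musclin. Unlike in iWAT, the groups overlapped, because WT library 3 was the lowest of all. The log2 fold change of Cish was -0.86 in BAT (SE 0.52, adjusted p = 0.97 by limma). It had the same sign as in iWAT (-0.94, SE 0.16), with a larger SE. Whether the Cish difference was unlike between the tissues was not tested.

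Set side by side, the cold WT adipose tissues had separate levels of most of the genes, although the tables were made separately and no test was run across them. Igf1 was 36.1 to 49.6 FPKM in iWAT and 1.49 to 3.83 FPKM in BAT. Igfbp4 was 281 to 624 FPKM in iWAT and 13.1 to 18.4 FPKM in BAT, and Igfbp5 86.4 to 118 FPKM and 11.0 to 16.1 FPKM. Akt2 was 69.1 to 75.2 FPKM in iWAT and 92.8 to 111 FPKM in BAT, an order that turned when each library was scaled to the same sum (TPM, chosen after the data were seen), at 188 to 205 TPM in iWAT and 129 to 157 TPM in BAT. Its share of the sum of Akt1 and Akt2 was 52.5% to 61.2% in iWAT and 81.3% to 86.2% in BAT. Insr was 16.7 to 21.1 FPKM and 13.9 to 17.2 FPKM, with overlap, but 45.5 to 57.9 TPM and 19.5 to 24.3 TPM, without overlap. The summed FPKM of the libraries were 364710 to 368500 in iWAT and 709981 to 720317 in BAT, so such ratios of iWAT to BAT are higher as TPM, 35.5 against 18.1 for Igf1. These sums ran over 13756 genes in iWAT and 55487 in BAT, so the TPM of the 2 tissues rest on unlike gene lists. How far that moved the TPM comparisons was not tested. The ratio of Insr to Igf1r was 7.75 to 8.86 in iWAT and 14.8 to 29.3 in BAT. Against the untreated brown adipose library, cold WT BAT had less Igf1 (9.00 FPKM untreated), Igf2 (5.80 FPKM), Igfbp5 (34.6 FPKM), Igf1r (1.56 FPKM) and Akt2 (125 FPKM). It had more Insr (8.99 FPKM untreated). Irs2 was below the untreated level too, though WT library 2 lay close to it, at 10.6 against 10.8 FPKM. Age, batch and cold cannot be told apart there, and the untreated tissue is 1 library.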

How the data were processed

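The authors isolated mRNA with oligo(dT), made random-primed libraries and filtered reads with fastp and Bowtie2 (2.4.1 per the labels). They aligned the reads with HISAT2 (2.1.0) to GRCm38 without using strand. The paper gives StringTie as the source of the FPKM, while the labels also name Cuffdiff (2.1.137). Which program made the deposited FPKM values, which were used here, cannot be told. RNA of white adipose and iWAT was extracted with a kit and that of the other tissues with TRIzol. The iWAT table holds fewer genes than the others, by a filter not given in the sources used here, and it also holds fold changes, p-values and means of the authors' own comparison, which were not used.

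MCK-Musclin was compared with WT per table with limma 3.58.1 (R 4.3.3) on log2(FPKM + 1) with a trend of the variance over genes that averaged 1 FPKM or more, Benjamini-Hochberg adjustment and a threshold of 0.05, a procedure tested on simulated data; fold changes are on this scale and understate those of low genes. The design text calls the libraries biological replicates. Ratios were compared by exact permutation tests. The genes, the lists of 67 other pathway genes and of cell type markers, and the alternatives were chosen with earlier results of these data known. Pathway genes were named where the unadjusted p was under 0.05 and the groups did not overlap, at most 8 per comparison by fold change, and in the tissues where the highest level was at least 10 FPKM and 5 times the next; Socs2, Slc2a4, Pik3r1, Ghr, Igf2r, Irs3, Akt1, the insulin genes and Cish in BAT were added after their values were seen. Gene positions and overlapping exons are from GENCODE vM21 (GRCm38). Alternatives were other pseudocounts (0.1, 0.01), filters, scalings, variance models, a replicate block, each library left out and the log2 cutoffs of the study. Some genes that the naming rules would select are not reported here.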

Additional observations from a re-analysis of the deposited data

How the results depend on the processing

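No alternative gave any of the 10 genes an adjusted p under 0.05 in iWAT or BAT (limma). The count of genes at an unadjusted p under 0.05 in iWAT (2012) was 725 with the study's log2 cutoff of 0.5 and 3684 with centring on adipocyte markers, an alternative chosen after seeing the data, which also gave 425 genes an adjusted p under 0.05 (0 as reported). Left out singly, libraries gave 0 to 86 such genes, the 86 without WT library 1, against 0 with all 6. The 2 of 9 member genes that had an unadjusted p under 0.05 became 1 by limma without the trend and 0 with the cutoff; singly left out libraries gave 0 to 3, the 0 when MCK-Musclin library 1 or 3 was dropped, 1 when WT library 1 was and 3 (Akt2, Igf1 and Igfbp3) when WT library 2 was. The 15 other pathway genes became 6 with the cutoff and 7 to 11 when libraries were left out. In BAT the 533 genes became 1054 without a filter, 310 at a mean FPKM of at least 5 and 935 with the centring, the 1 gene at an adjusted p became 1 to 4, and the 2 other pathway genes 0 to 3 when libraries were left out.

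The labels do not say whether the replicate numbers pair the samples. Deviations of equal numbers correlated at 0.23, 0.061 and 0.11 in iWAT and at -0.095, -0.0046 and 0.0094 in BAT. Of the libraries, 5 of 6 in iWAT and 0 of 6 in BAT correlated best with their own number. With the replicate block, 1 of the 9 iWAT genes (Akt2, adjusted p = 0.27, limma) had an unadjusted p under 0.05, and the counts of all genes were 1956 in iWAT and 523 in BAT.

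Uncalled fold changes near 0 turned sign. In iWAT, Igfbp4 and Igfbp5 were -0.051 and -0.00039 as TPM and -0.078 and -0.027 with median ratios, and Igf1r and Irs1 0.19 and 0.019 with the centring, which in BAT turned Akt2 to 0.13, Insr to 0.12 and Irs1 to 0.059. In iWAT the ranges with each library left out were -0.075 to 0.033 for Igf1r, -0.21 to 0.38 for Igfbp4, -0.066 to 0.16 for Igfbp5, -0.33 to 0.0076 for Irs1, -0.23 to 0.45 for Irs2. In BAT the ranges with each library left out were -0.13 to 0.049 for Akt2, -0.31 to 0.35 for Igf1, -0.016 to 0.32 for Igfbp3, -0.026 to 0.24 for Igfbp4, -0.11 to 0.18 for Igfbp5, -0.10 to 0.059 for Insr, -0.64 to 0.43 for Irs2. In the tissues, the deposited highest tissue relative to the highest of the others was 0.874 as TPM and 0.621 with median ratios for Igf2, and with median ratios 0.562 for Insr, 0.678 for Irs1, 0.630 for Irs2, 0.669 for Akt2 and 0.437 for Igfbp5. The ratio of Akt2 in cold WT iWAT to that in cold WT BAT was 0.687 as deposited and 1.34 as TPM. That scaling was chosen with the data in view and sums over unlike gene lists in iWAT and BAT.

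FPKM keep no counts and give no counting interval, and 3 libraries per group leave intervals wide: that of Igfbp4 in iWAT spans -0.78 to 0.79.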
